A study of Saccharomyces cerevisiae with 12 samples.

Results

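The genes described here are 40 budding yeast genes of the cell wall, chosen by name from 7126 features in the deposited count table. They comprise 8 genes of glucan synthesis, 6 of chitin synthesis, 10 for enzymes that remodel glucan and chitin, 3 for the yapsin proteases and 13 for proteins of the wall itself. All 40 were found, and all 40 stayed among the 6309 features tested after low counts were filtered out. No member had a count of 0 in any library.

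Poly(A) RNA was sequenced from 4 groups of haploid MATa cells, with 3 libraries per group and 12 in all. The groups were crz1cnb1 after 48 h in 400 mM KCl, crz1cnb1 at 0 h, crz1 after 48 h in 400 mM KCl, and crz1 at 0 h. All 12 libraries shared the BY4741 background, the alleles his3delta1, ura3delta0, leu2delta0 and lys2delta0, the deletion crz1delta::LEU2, and a hygromycin-marked TEFp-GFP(Y66F) cassette on chromosome VI. Only crz1cnb1 carried cnb1delta::KanMx in addition. CRZ1 encodes the transcription factor that the protein phosphatase calcineurin activates, and CNB1 encodes the regulatory subunit of calcineurin. The series set out to find expression changes that depend on calcineurin without Crz1, and no CRZ1 wild-type strain was among the samples. Cells in KCl were kept in logarithmic growth by dilution every 12 h. Cells without KCl were sampled only at 0 h, so an effect of KCl and an effect of 48 h of culture cannot be told apart. The labels do not say that replicates were separate cultures, and p-values therefore measure the spread between these samples.

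The yeast wall is a mesh of beta-1,3-glucan, made at the plasma membrane by the synthase whose catalytic subunits are Fks1 and Gsc2, with branches of beta-1,6-glucan, a little chitin, and an outer layer of heavily mannosylated proteins. Transglycosidases of the Gas and Crh families lengthen glucan and join chitin to glucan, and many mannoproteins are tied to beta-1,6-glucan through the remnant of a lipid anchor. The wall integrity pathway, which acts through the kinase Slt2 and the factors Rlm1 and SBF, controls many of these genes. Calcineurin acting through Crz1 is also known to activate wall genes, among them GSC2, CRH1 and UTR2.

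The 3 members called below, each in only 1 strain and only with the replicate number in the test, are UTR2, EXG2 and PIR3, and a stretch upstream of each is shown so that known binding motifs can be seen in place. UTR2 (YEL040W) lies at V:78053-79456 on the plus strand, EXG2 (YDR261C) at IV:977521-979209 on the minus strand, and PIR3 (YKL163W) at XI:144401-145378 on the plus strand, as coding positions in build R64. Each stretch is 300 bases long, from 400 to 101 bases before the start codon, and reads 5′ to 3′ toward the gene in the R64 RefSeq genome. Capitals mark matches to the motifs CNCGAAA (bound by SBF), CTANNNNTAG (a wide form of the Rlm1 motif) and CCCCT (the stress response element), searched on both strands. UTR2 is at chrV:77653-77952, EXG2 at chrIV:979310-979609 and PIR3 at chrXI:144001-144300.
UTR2 upstream: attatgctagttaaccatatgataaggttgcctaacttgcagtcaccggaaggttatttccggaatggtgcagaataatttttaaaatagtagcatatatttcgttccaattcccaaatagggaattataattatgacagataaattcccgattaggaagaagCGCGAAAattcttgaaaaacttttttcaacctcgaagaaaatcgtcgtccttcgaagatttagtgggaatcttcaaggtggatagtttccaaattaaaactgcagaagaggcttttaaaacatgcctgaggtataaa
EXG2 upstream: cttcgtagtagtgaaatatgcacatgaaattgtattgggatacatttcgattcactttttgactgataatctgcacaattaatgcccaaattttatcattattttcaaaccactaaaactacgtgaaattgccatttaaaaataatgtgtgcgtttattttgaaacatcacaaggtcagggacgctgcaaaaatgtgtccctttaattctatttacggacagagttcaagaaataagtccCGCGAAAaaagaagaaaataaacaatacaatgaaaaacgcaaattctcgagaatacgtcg
PIR3 upstream: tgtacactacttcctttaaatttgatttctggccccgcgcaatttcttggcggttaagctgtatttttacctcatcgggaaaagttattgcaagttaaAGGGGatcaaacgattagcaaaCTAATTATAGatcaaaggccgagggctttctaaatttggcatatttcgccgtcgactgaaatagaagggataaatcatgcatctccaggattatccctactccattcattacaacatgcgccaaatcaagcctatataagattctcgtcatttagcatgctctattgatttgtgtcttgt
The UTR2 and EXG2 stretches each held the letters CGCGAAA, and the PIR3 stretch held CTAATTATAG and AGGGG, the reverse complement of the stress response element. The same window was read for 6007 genes of the reference. The SBF motif stood in 14 of 40 members (35%) and in 15.5% of all windows, and the Rlm1 motif in 9 members (22.5%) and in 5.54% of all windows. CCCCT stood in 5 members (12.5%) and in 23.6% of all windows. The motif GNGGCNCA, an open form of the Crz1 element, stood in 2 members (5%), CHS1 and YGP1, and in 4.88% of all windows. The windows were not shortened at neighbouring genes, and a match is a description of letters only.

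The libraries were of nearly equal size, with 21305485 to 21599279 counts, and the genotypes matched their labels. CNB1 had 14 to 68 counts in the 6 crz1cnb1 libraries and 1346 to 3139 in the 6 crz1 libraries, and CRZ1 had 3 to 19 in all 12. The 6 MATa marker genes summed to 2109 to 4517 CPM, which are counts per 1000000 scaled with TMM factors, and the 2 MATalpha markers that were found to 21.5 to 51.4 CPM. The 4 meiotic markers summed to 19.6 to 29.3 CPM. The libraries numbered 3 stood apart from those numbered 1 and 2 in every group, along the second principal component, and the 2 KCl libraries numbered 2 lay with the 0 h libraries on the first. In bulk RNA, fewer cells of a kind and less RNA per cell cannot be told apart.

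Levels of the 40 genes spanned more than 3 orders of magnitude. They are compared between genes in the authors' TPM, transcripts per 1000000, which takes account of gene length. In crz1 at 0 h the median was 841 TPM for the wall proteins, 593 TPM for the remodelling enzymes, 79.6 TPM for the yapsins, 54.2 TPM for glucan synthesis and 44.6 TPM for chitin synthesis. CCW12, which encodes a major covalently linked mannoprotein, was the most abundant member in crz1 at 0 h. It averaged 16665 ± 5492 TPM in crz1cnb1 in KCl against 18235 ± 4951 TPM in crz1cnb1 at 0 h, and 16124 ± 6626 TPM in crz1 in KCl against 17591 ± 4291 TPM in crz1 at 0 h (SD, n = 3 each). CWP2, another anchored mannoprotein, came next with 7191 ± 3971 and 8895 ± 2850 TPM in crz1cnb1 in KCl and at 0 h, and with 4760 ± 2095 and 6336 ± 2547 TPM in crz1 in KCl and at 0 h.

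The least abundant member was PIR3, a wall protein linked to beta-1,3-glucan through internal repeats, at 4.65 ± 0.85 TPM in crz1 at 0 h (SD, n = 3). Its divergent neighbour and paralogue PIR1, 1581 bases away, stood at 738 ± 146 TPM in the same cells. The paralogues of glucan synthase also differed, with 178 ± 21 TPM for FKS1 and 9.96 ± 1.29 TPM for GSC2 in crz1 at 0 h. As a measure of possible shared reads, 10.8% of the 50-base words of PIR3 recur elsewhere in the genome, 7.38% of those of HSP150, 7.17% of those of PIR1 and 2.52% of those of CIS3. No source used here says how multi-mapped reads were counted, so the low PIR3 values are uncertain to that extent. SED1 (4.75%) and CHS5 (1.93%) were the other members with such words, and no member overlapped another annotated RefSeq gene.

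**Figure D1:**
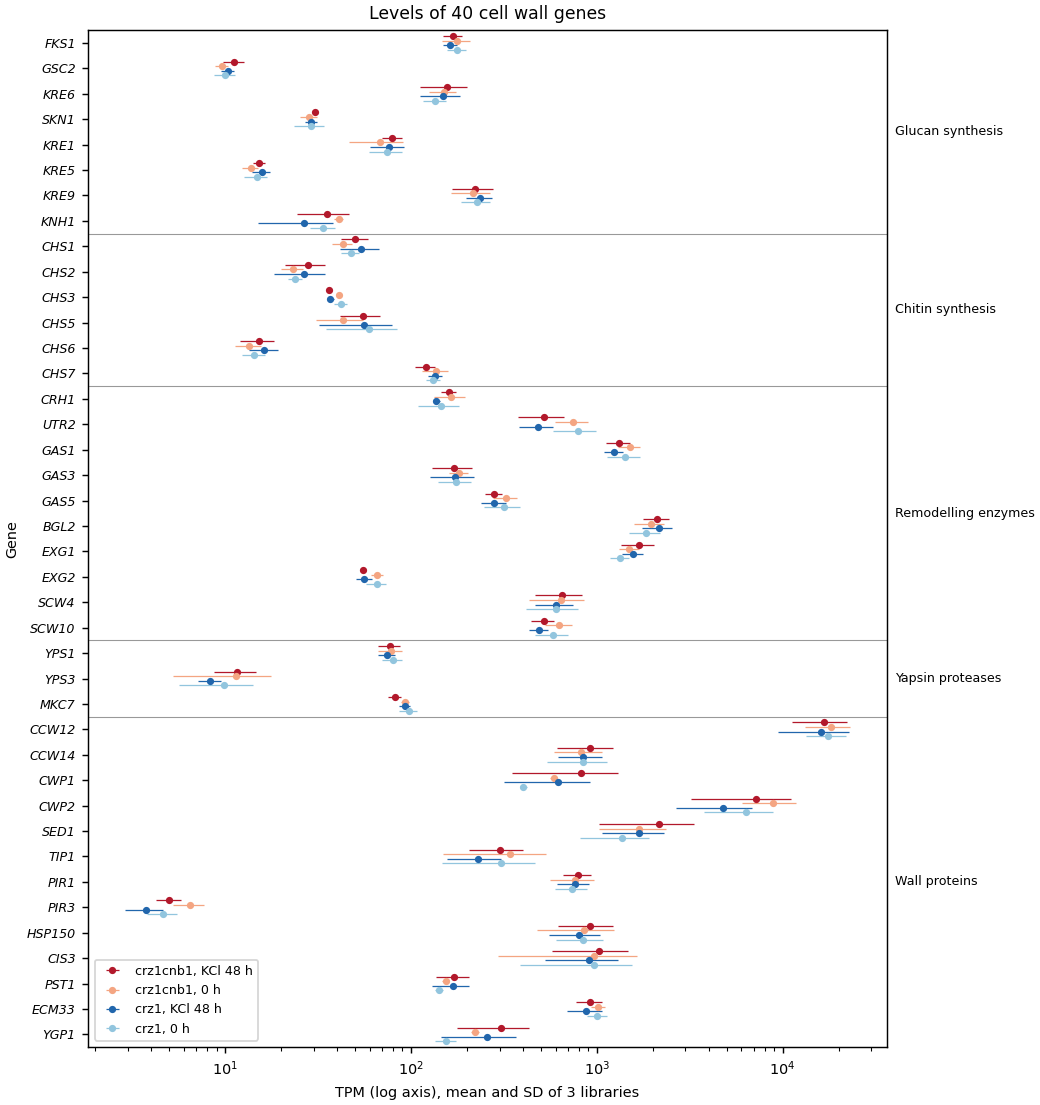
Levels of the 40 genes in TPM on a log axis, by class, with the 4 groups in colour, points at the mean and bars for the SD of 3 libraries. Wall proteins and remodelling enzymes hold the highest levels, from CCW12 at the top, and PIR3, YPS3 and GSC2 are the lowest members.

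The median size of the difference between the library numbered 3 and the others was 0.58 on the log2 scale over the 40 genes, against 0.12 to 0.21 in the 4 comparisons of groups below. It was the larger of the pair in 35 to 39 of the 40 genes, and the exceptions included UTR2 and KNH1 for KCl in both strains, and EXG2 and CHS3 for KCl in crz1cnb1. In 31 of the 40 genes (77.5%) the library numbered 3 was the highest of its group in all 4 groups, which was so for 19.7% of all features tested. By library totals without a scaling factor it was 16 of 40 members (40%) and 5.66% of all features. The median difference of the library numbered 3 from the mean of numbers 1 and 2 was 0.58 on the log2 CPM scale over the members and -0.03 over all features. The 40 genes took 4.18 to 4.80% of all counts in the 4 libraries numbered 3 and 2.86 to 3.48% in the other 8. The TMM factors were 0.791 to 0.955 in the libraries numbered 3 and 0.978 to 1.17 in the other 8, so the scaling itself differed with the number. Whether the number marks a day, a culture or a batch of libraries was not tested, and the labels do not say.

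Wall proteins differed most with the number, by a median of 0.87 on the log2 scale, and chitin synthesis genes least, by 0.22. CIS3, a Pir-family wall protein, stood 1.49 higher in number 3 on average over the 4 groups, SED1, a stress-linked structural mannoprotein, 1.22, and CWP2 1.19. SED1 had 1642, 1940 and 4925 CPM in crz1cnb1 in KCl against 1435, 2067 and 3789 CPM in crz1cnb1 at 0 h, in the order of the numbers. In crz1 it had 1451, 1620 and 3250 CPM in KCl against 1131, 1375 and 2829 CPM at 0 h. The library numbered 3 was the highest in each of these 4 groups, and the values in KCl overlapped those at 0 h in both strains. For CWP1 and YGP1 the gap was larger in KCl. CWP1 stood 1.57 higher in number 3 in crz1cnb1 in KCl and 0.37 higher at 0 h, and 1.35 higher in crz1 in KCl and 0.19 higher at 0 h. CHS5, CHS6 and CHS1 were highest in number 3 in none of the 4 groups, and CHS5, a component of the exomer coat that carries Chs3 to the surface, was lower there by 0.37 on the log2 scale (a mean difference of -0.37).

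**Figure D2:**
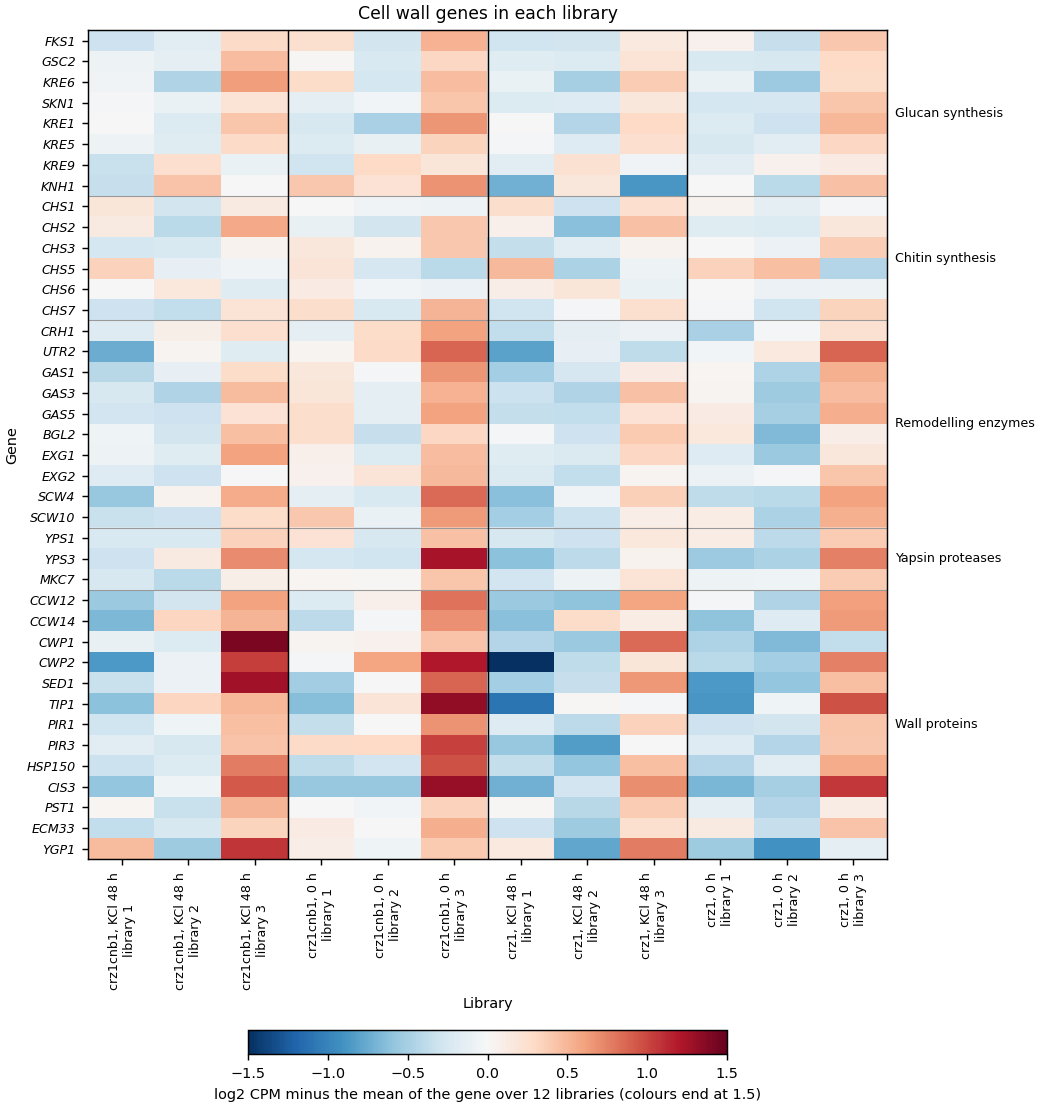
Heat map of the 40 genes (rows, by class) in the 12 libraries (columns, by group), as log2 CPM minus the gene's mean over the 12 libraries, with red above and blue below the mean and colours ending at 1.5. The libraries numbered 3 are the reddest columns of their groups, most of all among the wall proteins, and CHS1, CHS5 and CHS6 are among those that do not share this.

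The first comparison asks how the wall genes differed after 48 h in KCl from 0 h in cells without calcineurin. In crz1cnb1, 29 of the 40 genes had a log2 fold change below 0, beside 47.1% of all features, and their median was -0.14, beside 0.02 over all features. None passed edgeR's quasi-likelihood test at a Benjamini-Hochberg adjusted p of 0.05, where 0.586% of all features did (37 of 6309). At an unadjusted p under 0.05 in this test there was 1 member, UTR2, beside 8.35% of all features. DESeq2 called 0 members and 1.87% of all features (118). Remodelling enzymes were the class with the lowest median, at -0.30, with 9 of 10 below 0. Glucan synthesis had 6 of 8 below 0 (median -0.08), wall proteins 9 of 13 (-0.11), yapsins 3 of 3 (-0.18) and chitin synthesis 2 of 6 (0.04). With library totals the medians of glucan synthesis (0.09) and wall proteins (0.09) turned positive, while remodelling enzymes had 7 of 10 below 0 (-0.14). The median of all features was then 0.18.

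In crz1, 28 of the 40 genes had a log2 fold change below 0, beside 48.4% of all features, with a median of -0.12, beside 0.01. Again no member passed the test, where 0.571% of all features did (36 of 6309). UTR2 was the only member at an unadjusted p under 0.05 in this test, beside 8.5% of all features. DESeq2 called 0 members and 1.7% of all features (107). Remodelling enzymes had 8 of 10 below 0 (median -0.20), glucan synthesis 5 of 8 (-0.03), wall proteins 9 of 13 (-0.14), yapsins 3 of 3 (-0.19) and chitin synthesis 3 of 6 (0.02). With library totals glucan synthesis turned positive (0.07), and remodelling enzymes had 7 of 10 below 0 (-0.10) and yapsins 3 of 3 (-0.08). The median of all features in crz1 was then 0.09. With library totals in place of TMM the median over all features moved by more than 0.1, to 0.18 in crz1cnb1, and that of the members to 0.04, with 22 of 40 above 0, beside 76.0% of all features. In crz1 library totals left 21 of 40 below 0 (median -0.02), and TPM 20 of 40 (-0.02), where 64.7% and 62.2% of all features lay above 0. Relative to all features the members' median with library totals was -0.14 in crz1cnb1, and -0.11 in crz1. Without the 4 libraries numbered 3 there were 27 of 40 below 0 in crz1cnb1 (median -0.13) and 23 of 40 in crz1 (median -0.02). Of all features, 51.4% and 49.3% then lay above 0. In that fit 0 members were called, beside 10 of 6323 features in crz1cnb1 and 9 in crz1. Leaving out the 0 h library numbered 3 alone turned the members' median to 0.08 in crz1cnb1 and to 0.15 in crz1.

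Replicate numbers paired the samples, so the same test was run with the number as a block. It called 2 members lower in KCl in crz1cnb1, EXG2 and PIR3, where 2.3% of all features were called lower and 4.98% in either direction. In crz1 it called 1 member lower, UTR2, where 1.43% of all features were called lower and 4.82% in either direction. These shares of the members, 5% and 2.5%, stand on counts of 2 and 1. At an unadjusted p under 0.05 the block gave 12 members (30%) in crz1cnb1, beside 23% of all features. In crz1 it gave 8 (20%), beside 20.9%. The adjusted calls of this test depended on which numbers were in the fit. With the block and without the 4 libraries numbered 2, it called 13 members in crz1cnb1, beside 23.8% of all features (1502), and 8 in crz1, beside 25.9% (1632). Without the libraries numbered 1 it called 0 members in both strains, beside 0.618% of all features in crz1cnb1 and 0.428% in crz1. Without those numbered 3 it also called 0 in both, beside 0.965% and 0.648%. The KCl libraries numbered 2 are those that lay with the 0 h libraries on the first component, and no gene is named from the fit without them.

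UTR2 encodes a Crh-family transglycosidase that links chitin to glucan, and it had the lowest log2 fold change of the members in both strains. It had 644, 1112 and 950 CPM in crz1cnb1 in KCl, against 1108, 1316 and 1973 CPM in crz1cnb1 at 0 h. The crz1 values were 621, 993 and 831 CPM in KCl, against 1045, 1196 and 1979 CPM at 0 h. Each KCl library was below the 0 h library of its number, and in crz1 the groups did not overlap, which was so in that direction for 3.74% of all features. In crz1cnb1 they overlapped by 1 library, the KCl library numbered 2. In TPM, without TMM scaling, the crz1 groups overlapped too, at 406, 597 and 445 TPM in KCl against 580, 796 and 988 TPM at 0 h. The log2 fold change was -0.70 ± 0.31 (SE) in crz1cnb1, with a 95% interval of -1.36 to -0.04 and an adjusted p of 0.562 by edgeR. In crz1 it was -0.79 ± 0.31, with an interval of -1.45 to -0.12 and an adjusted p of 0.434. With the replicate block the adjusted p was 0.0519 in crz1cnb1 and 0.0348 in crz1, where it was 0.400 without the libraries numbered 1 and 0.365 without those numbered 3. CRH1, the paralogue in the same family, had 253, 307 and 344 CPM in KCl against 260, 349 and 436 CPM at 0 h in crz1cnb1, a log2 fold change of -0.21 ± 0.23. It was at -0.14 ± 0.23 in crz1, with 222, 260 and 270 CPM in KCl against 206, 284 and 337 CPM at 0 h.

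EXG2 encodes an exo-beta-1,3-glucanase held at the cell surface. It had 113, 104 and 129 CPM in crz1cnb1 in KCl, against 134, 147 and 179 CPM in crz1cnb1 at 0 h, and these groups did not overlap, as was so in that direction for 6.01% of all features. Its values in crz1 were 110, 99.1 and 132 CPM in KCl, against 121, 125 and 171 CPM at 0 h, and the groups overlapped. The log2 fold change was -0.41 ± 0.19 in crz1cnb1, with an edgeR adjusted p of 0.604 and of 0.0320 with the replicate block. Without the libraries numbered 1 or 3 the adjusted p with the block was 0.281 or 0.301. In crz1 it was -0.29 ± 0.19, with an adjusted p of 0.847 and of 0.117 with the block. In TPM, without TMM scaling, the crz1cnb1 groups were again apart, at 52.97 to 57.5 TPM in KCl against 60.1 to 69.1 TPM at 0 h. This was so in TPM, in that direction, for 3.12% of all features. EXG1, the main secreted exoglucanase, stood at 0.02 ± 0.28 in crz1cnb1 and 0.15 ± 0.28 in crz1.

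PIR3 had 5.34, 5.03 and 8.02 CPM in crz1cnb1 in KCl, against 7.28, 7.30 and 12.1 CPM in crz1cnb1 at 0 h. PIR3 in crz1 had 4.03, 3.32 and 5.96 CPM in KCl, against 5.21, 4.37 and 7.86 CPM at 0 h. The groups overlapped in both strains, while all 6 pairs of the same number were lower in KCl. The log2 fold change was -0.53 ± 0.31 in crz1cnb1, with an edgeR adjusted p of 0.741 and of 0.0395 with the block. This adjusted p was 0.401 without the libraries numbered 1 and 0.349 without those numbered 3. It was -0.39 ± 0.31 in crz1, with an adjusted p of 0.904 and of 0.123 with the block. PIR1, HSP150 and CIS3, the other Pir proteins of the set, ranged from -0.12 to -0.07 in crz1cnb1 and from -0.16 to -0.03 in crz1.

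**Figure D3:**
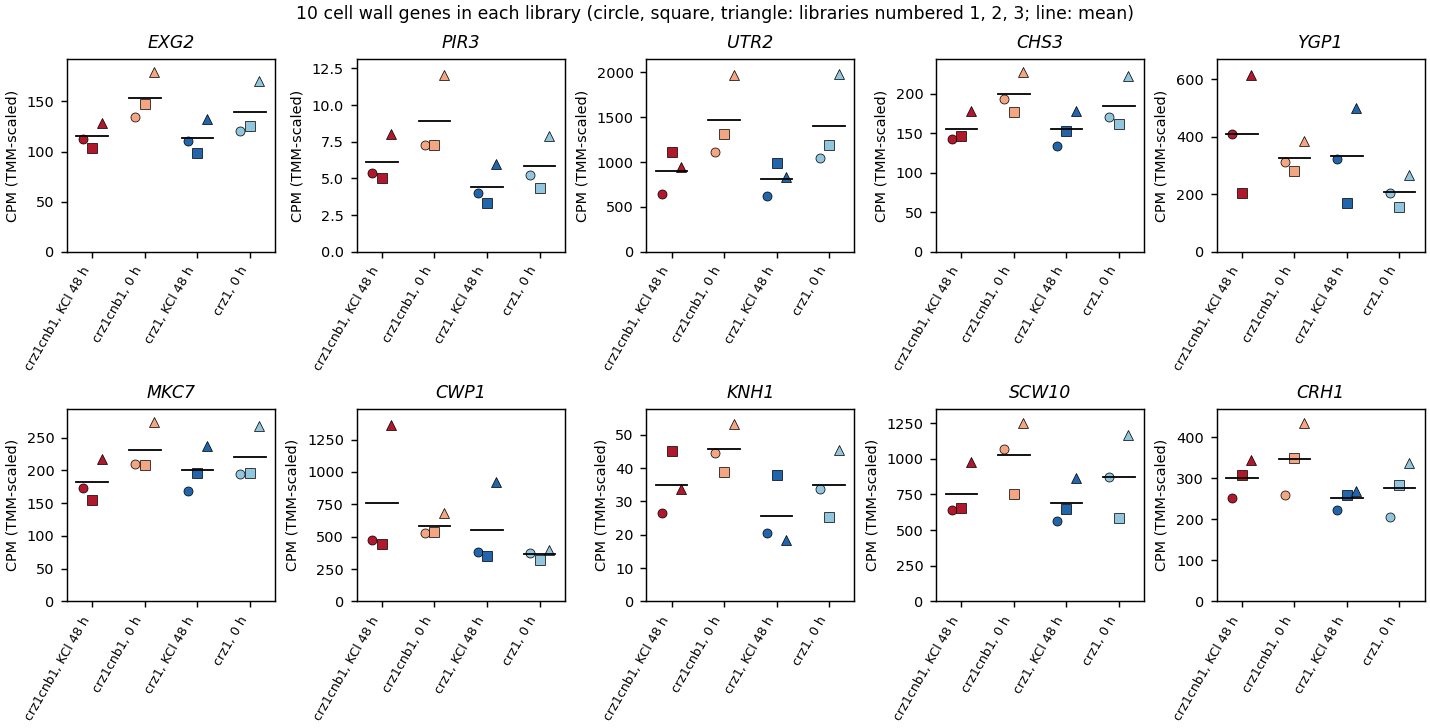
CPM of 10 genes in every library, KCl left of 0 h within crz1cnb1 and crz1, on a separate axis for each gene, with numbers 1 to 3 drawn as circle, square and triangle, and a line at each group's mean. UTR2, EXG2, PIR3, CHS3 and MKC7 are lower in KCl in all 6 same-number pairs (in TPM not EXG2 and MKC7), while CWP1 and YGP1 are highest in the KCl libraries numbered 3.

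CHS3 encodes the catalytic subunit of chitin synthase III, which makes most of the chitin of the lateral wall and bud neck. It had 143, 146 and 179 CPM in crz1cnb1 in KCl, against 193, 177 and 228 CPM in crz1cnb1 at 0 h. In crz1 the values were 134, 153 and 178 CPM in KCl, against 170, 161 and 222 CPM at 0 h. It was lower in KCl in all 6 pairs, and the groups overlapped through the KCl library numbered 3 in both strains. In TPM it had 35.3, 36.1 and 36.8 TPM in crz1cnb1 in KCl, against 41.8, 40.2 and 41.6 TPM at 0 h, which did not overlap, as in that direction for 3.12% of all features. In crz1 the TPM values were 35.2, 36.9 and 38.2 in KCl, against 37.9, 43.1 and 44.6 at 0 h, and overlapped. The log2 fold changes were -0.35 ± 0.19 in crz1cnb1, with an edgeR adjusted p of 0.713 and of 0.0524 with the block, and -0.25 ± 0.19 in crz1, with 0.893 and 0.162. On the log2(TPM + 1) scale limma gave -0.19 in crz1cnb1, with an adjusted p of 0.788. CHS7, needed for Chs3 to leave the endoplasmic reticulum, stood at -0.35 ± 0.25 in crz1cnb1 and -0.04 ± 0.25 in crz1. CHS1 and CHS2, the synthases of repair and of the primary septum, stood between 0.07 and 0.13 in both strains.

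MKC7, a yapsin that cleaves surface proteins, had 174, 155 and 217 CPM in crz1cnb1 in KCl, against 210, 208 and 274 CPM in crz1cnb1 at 0 h. The crz1 libraries had 169, 195 and 237 CPM in KCl, against 195, 196 and 267 CPM at 0 h. Its log2 fold changes were -0.34 ± 0.21 and -0.13 ± 0.21, with edgeR adjusted p of 0.757 in crz1cnb1 and 0.980 in crz1. The block gave an adjusted p of 0.0599 in crz1cnb1. In TPM the crz1cnb1 groups did not overlap, at 74.4 to 87.3 TPM in KCl against 88.7 to 97.9 TPM at 0 h. CHS3, EXG2 and MKC7 were the 3 members apart in this way in TPM, beside 3.12% of all features. In CPM, and in crz1 in TPM, the MKC7 groups overlapped. YPS1 stood at -0.18 ± 0.25 in crz1cnb1 and -0.19 ± 0.25 in crz1.

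SCW10, one of a pair of soluble glucanase-family wall proteins with SCW4, had 638, 651 and 976 CPM in crz1cnb1 in KCl, against 1070, 752 and 1253 CPM in crz1cnb1 at 0 h. SCW10 in crz1 had 565, 648 and 863 CPM in KCl, against 869, 583 and 1169 CPM at 0 h. The groups overlapped in both strains, and in crz1 the pair numbered 2 was higher in KCl. The log2 fold changes were -0.44 ± 0.29 in crz1cnb1 and -0.34 ± 0.29 in crz1, with edgeR adjusted p of 0.778 and 0.913. GAS1 and GAS5, the glucan elongases, stood at -0.36 ± 0.29 and -0.38 ± 0.29 in crz1cnb1 and -0.28 ± 0.29 and -0.26 ± 0.29 in crz1.

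KNH1, a homologue of KRE9 in beta-1,6-glucan synthesis, had 26.4, 45.1 and 33.7 CPM in crz1cnb1 in KCl, against 44.5, 38.9 and 53.3 CPM in crz1cnb1 at 0 h. Values in crz1 were 20.4, 37.8 and 18.4 CPM in KCl, against 33.7, 25.3 and 45.3 CPM at 0 h. In both strains the KCl library numbered 2 was the highest of its group and numbers 1 and 3 were below their 0 h partners. The log2 fold changes were -0.38 ± 0.30 and -0.44 ± 0.30, with edgeR adjusted p of 0.837 in crz1cnb1 and 0.845 in crz1. The other 7 genes of glucan synthesis lay between -0.24 (FKS1) and 0.06 (GSC2) in crz1cnb1 and between -0.20 (FKS1) and 0.06 (KRE6) in crz1.

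In crz1cnb1, 1 member, CHS5, was higher in KCl in 3 of 3 pairs, beside 24.6% of all features, and 15 were lower in 3 of 3, beside 20.7%. In crz1, 5 members were higher in 3 of 3 (EXG1, CWP1, SED1, PST1 and YGP1), beside 19.9%, and 7 were lower, beside 14.4%. These counts moved with the scaling: in TPM 6 members were higher and 10 lower in crz1cnb1, beside 44.4% and 8.83% of all features, and 4 were higher and 8 lower in crz1, beside 19.6% and 11.8%. Of the 5 named for crz1, 2 were also higher in 3 of 3 in TPM. The 2 largest positive log2 fold changes in each strain belonged to CWP1, an anchored mannoprotein, and YGP1, a secreted glycoprotein linked to nutrient limitation and stress. YGP1 had 408, 203 and 615 CPM in crz1cnb1 in KCl, against 313, 280 and 385 CPM in crz1cnb1 at 0 h. In the crz1 strain it had 324, 171 and 500 CPM in KCl, against 203, 157 and 268 CPM at 0 h. Its KCl libraries numbered 1 and 3 were above their 0 h partners in both strains, and number 2 was below its partner in crz1cnb1. The log2 fold changes were 0.33 ± 0.40 in crz1cnb1 and 0.66 ± 0.41 in crz1, with edgeR adjusted p of 0.906 and 0.816 and, with the block, of 0.572 and 0.118. CWP1 stood at 0.38 ± 0.43 in crz1cnb1 and 0.60 ± 0.43 in crz1, with edgeR adjusted p of 0.899 and 0.874, where the pair numbered 3 differed by 0.99 and 1.22 and the other 4 pairs by -0.27 to 0.11. Over both strains, 7 members were lower in KCl in 6 of 6 pairs (CHS3, UTR2, EXG2, MKC7, CCW12, PIR3 and ECM33), beside 8.05% of all features, and 0 were higher in 6 of 6, beside 11.3%. In TPM 5 were lower, 4 of these 7 and GAS5, beside 5.48%, and 3 were higher, beside 14.6%.

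**Figure D4:**
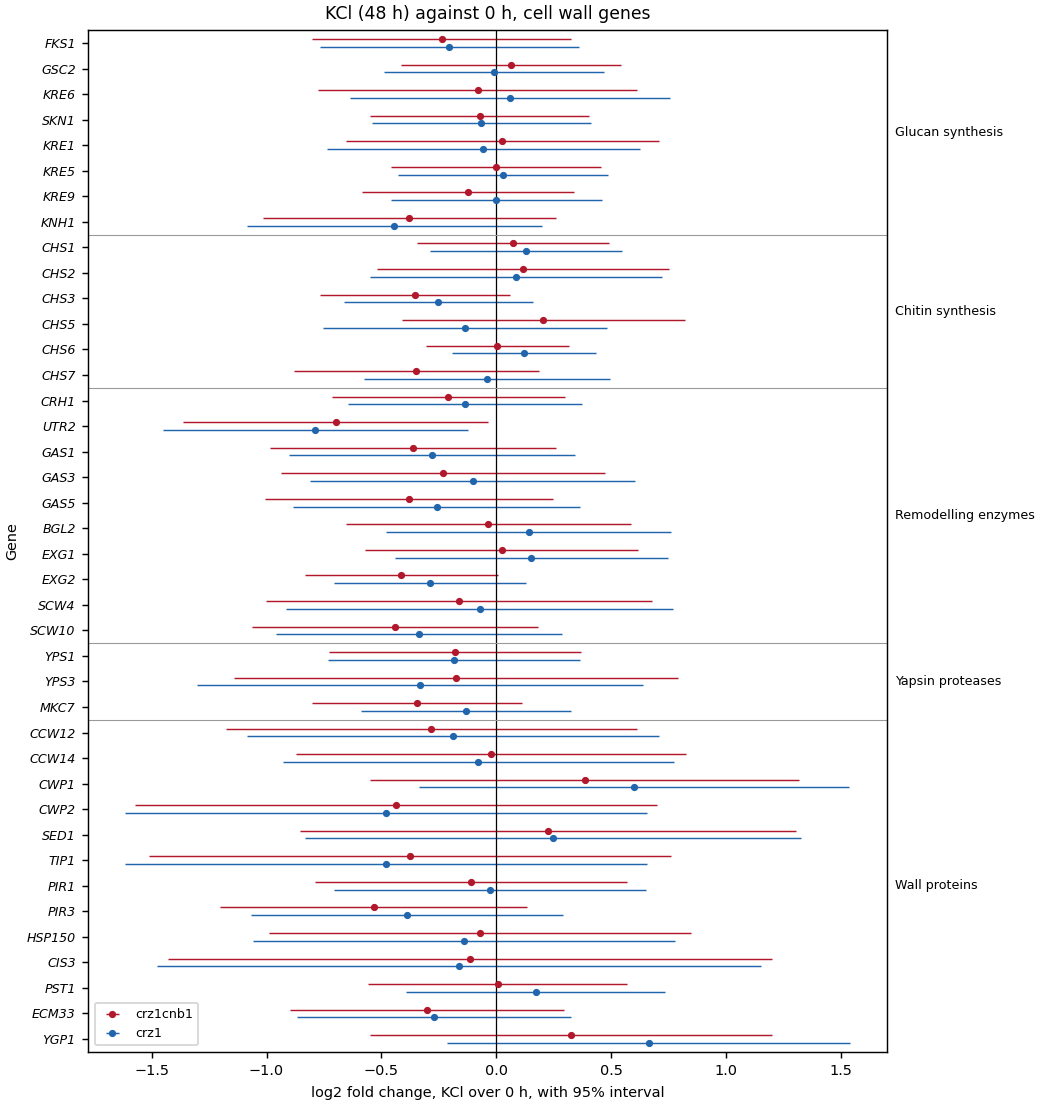
Log2 fold change of KCl over 0 h for the 40 genes, by class, in crz1cnb1 and crz1. The 95% intervals are from the quasi-likelihood fit without the replicate block. UTR2 is the only gene whose interval lies below 0 in both strains (-1.36 to -0.04 and -1.45 to -0.12), and the other 39 include 0 in both.

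The second comparison asks whether the response of these genes depended on calcineurin, as the difference between the KCl responses of crz1cnb1 and crz1. No member passed edgeR's test, nor did any of the 6309 features (0%), and DESeq2 and the replicate block also called 0. At an unadjusted p under 0.05 there were 0 members, beside 0.285% of all features, and with the block 0, beside 1.08%. The differences ran from -0.34 (YGP1) to 0.34 (CHS5), with a median of -0.08 for the members and -0.01 for all features. For UTR2 the difference was 0.09 ± 0.43, with a 95% interval of -0.85 to 1.02. For EXG2 it was -0.13 ± 0.27 (-0.72 to 0.47) and for PIR3 -0.15 ± 0.44 (-1.10 to 0.80). The smallest p among the members belonged to CHS7, at a difference of -0.31 ± 0.35 and a 95% interval of -1.06 to 0.45. These intervals are from the fit without the block. With the block the differences were 0.07 ± 0.25 for UTR2, -0.13 ± 0.13 for EXG2, -0.14 ± 0.18 for PIR3 and -0.32 ± 0.18 for CHS7. With uncertainty of this size the missing calls do not show that the responses were alike.

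The third comparison sets crz1cnb1 against crz1 at 0 h, before KCl. The wall genes lay higher in crz1cnb1 by small amounts: 38 of 40 had a log2 fold change above 0, beside 52.1% of all features, with a median of 0.17, beside 0.01. All 8 glucan synthesis genes, all 10 remodelling enzymes, all 3 yapsins and all 13 wall proteins were above 0, and 4 of 6 chitin synthesis genes were, CHS1 (-0.01) and CHS5 (-0.30) being the exceptions. With library totals this was 4 of 8, 9 of 10, 1 of 3, 13 of 13 and 2 of 6 in the same order, beside 21.5% of all features. With TPM it was 2 of 8, 9 of 10, 1 of 3, 10 of 13 and 1 of 6, beside 17.8%. No member passed edgeR's test, where 0.0159% of all features did (1 of 6309). Without the block 0 members had an unadjusted p under 0.05, beside 1.16% of all features. With the replicate block 9 members (22.5%) did, beside 3.69% of all features. DESeq2 called 0 members and 0.111% of all features (7), and the replicate block 0 members and 0.0793% (5). In 28 members all 3 pairs of the same number were higher in crz1cnb1, beside 19.4% of all features, and in 0 members all 3 were lower, beside 11.3%. In TPM this was 12 members higher, beside 3.88%, and 4 lower, beside 38.1%, and with library totals 15 higher, beside 5.74%, and 3 lower, beside 34.4%. With library totals 29 of 40 were above 0, beside 21.5% of all features. Their median was 0.06, where all features moved to -0.11, so that the members stood 0.17 above them. With the authors' TPM 23 of 40 were above 0, beside 17.8% of all features. Without the crz1cnb1 0 h library numbered 3 alone the median was -0.04.

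The largest differences at 0 h were in wall proteins. CWP1 had 528, 535 and 686 CPM in crz1cnb1 at 0 h, against 371, 323 and 395 CPM in crz1 at 0 h, at a log2 fold change of 0.68 ± 0.43 and an unadjusted p of 0.138 by edgeR. YGP1, with 313, 280 and 385 CPM in crz1cnb1 against 203, 157 and 268 CPM in crz1, was at 0.64 ± 0.41. For both genes the groups did not overlap, as was so for 1.62% of all features in that direction. They were the only members of which this held by CPM and by TPM, in TPM beside 0.539% of all features. Library totals added KNH1, PIR3 and PST1, beside 0.793% of all features. PIR3 was at 0.61 ± 0.31, CWP2 at 0.60 ± 0.53 and SED1 at 0.45 ± 0.50, each higher in all 3 pairs. With the block these were 0.61 ± 0.13, 0.62 ± 0.20 and 0.45 ± 0.12, with edgeR adjusted p of 0.239, 0.992 and 0.530. CRH1, which links chitin to glucan as UTR2 does, had 260, 349 and 436 CPM in crz1cnb1 against 206, 284 and 337 CPM in crz1, a log2 fold change of 0.34 ± 0.24. CHS5 was the lowest, at -0.30 ± 0.29. CWP1 and CWP2 are tandem neighbours on chromosome XI, with 1600 bases between them.

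The last comparison sets crz1cnb1 against crz1 after 48 h in KCl. There 35 of 40 genes lay above 0, beside 50.9% of all features, with a median of 0.12, beside 0.00. No member passed edgeR's test, where 0.0476% of all features did (3 of 6309). Without the block 0 members had an unadjusted p under 0.05, beside 1.11% of all features. With the replicate block 5 members (12.5%) did, beside 2.9% of all features. DESeq2 called 0 members and 0.127% of all features (8), and the replicate block 0 members and 0.0634% (4). All 13 wall proteins and all 10 remodelling enzymes were again above 0, with 7 of 8 glucan synthesis genes, 2 of 3 yapsins and 3 of 6 chitin synthesis genes. With library totals it was 13 of 13 wall proteins, 6 of 10 remodelling enzymes, 6 of 8, 2 of 3 and 1 of 6, beside 36.8% of all features. In 24 members all 3 pairs were higher in crz1cnb1, beside 16.3% of all features, and in 2 members, CHS6 and CHS7, all 3 were lower, beside 15.9%. In TPM it was 13 members higher, beside 7.58%, and 2 lower, CHS7 and MKC7, beside 23.6%. In 0 members were the groups apart, beside 1.24% of all features in the higher direction, and with library totals in 1, CRH1, beside 0.935%. With library totals 28 of 40 were above 0, beside 36.8% of all features, with a median of 0.07, beside -0.04. Without the crz1cnb1 KCl library numbered 3 alone the median was -0.12.

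CWP2 had the largest difference in KCl, with 1205, 2046 and 4467 CPM in crz1cnb1 against 768, 1677 and 2480 CPM in crz1, a log2 fold change of 0.65 ± 0.53. The groups overlapped, and the libraries numbered 3 were far above the others in both strains, while each crz1cnb1 library exceeded the crz1 library of its number. CWP1 had 475, 443 and 1366 CPM in crz1cnb1 in KCl against 379, 348 and 923 CPM in crz1 in KCl, at 0.47 ± 0.43. YPS3, a yapsin of low level, was at 0.53 ± 0.45, PIR3 at 0.47 ± 0.31 and KNH1 at 0.46 ± 0.30. MKC7, another yapsin, was at -0.14 ± 0.21. Taking both conditions, 19 of the 40 genes were higher in crz1cnb1 in 6 of 6 same-number pairs, beside 4.56% of all features, and 0 were lower in 6 of 6, beside 3.23%. With library totals 12 of the 19 were so, beside 1.78% of all features, and in TPM 9 of the 19, beside 1.35%. The 9 were KNH1, CRH1, EXG1, CWP1, CWP2, SED1, TIP1, PIR3 and YGP1. The 19 with TMM scaling were GSC2, KRE6, SKN1 and KNH1 of glucan synthesis, CRH1, GAS1, GAS3, EXG1, SCW4 and SCW10 of remodelling, YPS1 and YPS3, and CWP1, CWP2, SED1, TIP1, PIR3, PST1 and YGP1 of the wall proteins. No chitin synthesis gene was among them. Without the 4 libraries numbered 3, 36 of 40 members were above 0 at 0 h (median 0.18), beside 50.3% of all features. In KCl it was 33 of 40 (median 0.08), beside 49.0%.

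**Figure D5:**
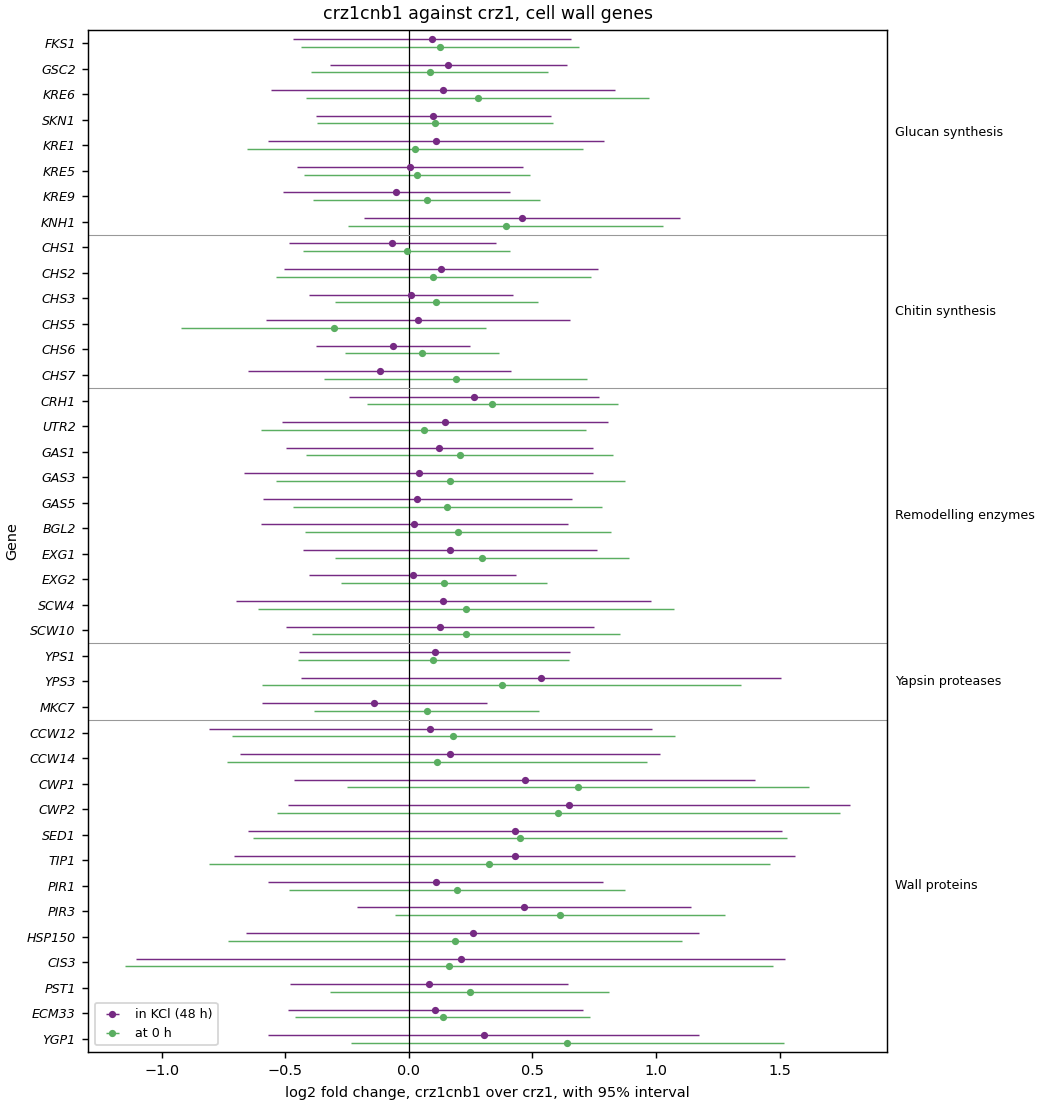
Log2 fold change of crz1cnb1 over crz1 for the 40 genes, by class, at 0 h and in KCl. The 95% intervals are from the quasi-likelihood fit without the replicate block. All 13 wall proteins and all 10 remodelling enzymes lie above 0 in both conditions with TMM scaling, and every interval includes 0. With library totals 9 of 10 remodelling enzymes do at 0 h, beside 21.5% of all features, and 6 of 10 in KCl, beside 36.8%.

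Of 70 other genes of wall synthesis, remodelling and protein mannosylation, 68 were found and 66 tested, and none passed edgeR's test in any of the 5 comparisons. In KCl 48 of 66 lay below 0 in crz1cnb1 (median -0.13), beside 47.1% of all features, and 43 in crz1 (median -0.12), beside 48.4%. With library totals it was 30 and 34 of 66, where 76.0% and 64.7% of all features lay above 0. Among the 66 genes, the 25 mannosylation genes, which encode the Pmt O-mannosyltransferases, the Golgi mannan enzymes and the supply of GDP-mannose, had 22 below 0 in crz1cnb1 (median -0.22) and 20 in crz1 (median -0.14). With library totals it was 14 and 17 of 25, against the same 76.0% and 64.7% of all features above 0. In crz1cnb1 against crz1, 53 of the 66 lay above 0 at 0 h (median 0.09), beside 52.1%, and 33 in KCl (median 0.00), beside 50.9%. With library totals it was 31 at 0 h, beside 21.5% of all features, and 25 in KCl, beside 36.8%. The replicate block called 2 of the 66 in each strain for KCl against 0 h, beside 4.98% of all features in crz1cnb1 and 4.82% in crz1. It called SPI1, a stress-linked anchored wall protein, higher in KCl in crz1cnb1 (0.90 ± 0.23 in that fit, adjusted p = 0.0478) and in crz1 (1.15 ± 0.23, adjusted p = 0.0162). SUN4, a septation protein, was called lower in crz1cnb1 (-0.51 ± 0.12, adjusted p = 0.0322) and CDA1, a chitin deacetylase of the spore wall, lower in crz1 (-1.27 ± 0.26, adjusted p = 0.0184). Without the block the edgeR adjusted p was 0.581 for SPI1 in crz1cnb1 and 0.380 in crz1, 0.728 for SUN4 and 0.0666 for CDA1.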

How the data were processed

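The authors deposited whole-number counts and length-scaled TPM for each feature in every library, as the file headers show. Named in the submitters' processing notes are featureCounts, DESeq2 and genome build R64, without versions or roles. No source used here gives the aligner, the strand setting or the handling of multi-mapped reads. The counts were tested with edgeR 4.0.16 in R 4.3.3, with TMM scaling, filterByExpr by group, robust glmQLFit over all 12 libraries and Benjamini-Hochberg adjustment over 6309 features at 0.05. The common biological coefficient of variation was 0.223. CPM carry TMM factors. Standard errors are the log2 fold change over the root of the quasi-likelihood F, and pairs use log2 CPM with a prior count of 2. Alternatives were other scalings, no filter, DESeq2 1.42.0, limma 3.58.1 (voom, and the deposited TPM on the log2(TPM + 1) and log2(TPM + 0.1) scales), libraries left out, and the replicate number as a block. Deviations from group means correlated at 0.309 to 0.827 in the 18 same-number library pairs and at -0.732 to 0.317 in the 36 others, so the numbers pair the samples. That pairing rests on the correlations alone, as no label ties a number to a day or batch.

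The members and the gene lists were chosen with earlier results of these data known. Values in every library are given for each member called with or without the block, and for those with the smallest p up to 10 genes, plus SED1 and CWP2. These 2, and other genes named beside a count, were chosen after their values were seen. The code was tested on simulated counts. Sequences and coding positions came from the RefSeq R64 genome.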

Additional observations from a re-analysis of the deposited data

How the results depend on the processing

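With the replicate block the number of members called was 2 in crz1cnb1 and 1 in crz1 for KCl against 0 h, and with the block and the libraries numbered 2 left out it was 13 and 8, against 0 without a block. With the block and the libraries numbered 1, or those numbered 3, left out, alternatives chosen after seeing the data, it was 0 in both strains. It changed no other call, and every other alternative run gave 0 members called in all 5 comparisons. The directions of the member medians were less stable. For KCl against 0 h in crz1cnb1 the median was -0.14, but 0.0350 with library totals, 0.0380 on log2(TPM + 1) and 0.0381 on log2(TPM + 0.1), and -0.438 to 0.0823 with 1 library left out. In crz1 it was -0.12, but -0.0222 with library totals and -0.0187 on log2(TPM + 1), and ran from -0.263 to 0.153 with 1 library left out. For the difference of responses it was -0.08, but 0.0240 on both TPM scales and -0.319 to 0.159 with 1 library left out. The median of all features moved with the scaling too. Less that median, the member medians with TMM, library totals and log2(TPM + 1) were -0.162, -0.142 and -0.120 in crz1cnb1. In crz1 they were -0.129, -0.113 and -0.0887, and for the difference of responses -0.0646, -0.0636 and -0.0489. For crz1cnb1 against crz1 the member median ran from -0.0407 to 0.444 at 0 h and from -0.121 to 0.303 in KCl. The positive ends for KCl, and the negative ends between strains, came from leaving out a library numbered 3 of crz1cnb1 at 0 h, crz1 at 0 h or crz1cnb1 in KCl, which unbalances the numbers between the groups compared. With all 4 libraries of any 1 number left out, all 5 medians kept their sign. Counts of pairs in one direction and of groups that do not overlap also changed with the scaling, which was tried after seeing the data. The smallest member count in a library was 76.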
